A study of Apostichopus japonicus with 9 samples.

Results

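Genes of complement, a cascade of immune proteins in body fluids, were followed in body wall of *A. japonicus*, a sea cucumber. They are 5 of the 53665 genes in the deposited expression table: 2 genes described as complement component C3 (MSTRG.13902 and MSTRG.13921), the complement factor B gene MSTRG.2825 (Bf), the complement factor B-2 gene MSTRG.3521 (Bf-2) and the mannan-binding lectin serine protease gene MSTRG.17062 (MASP). The C3 genes and Bf-2 carry these names in the table. MSTRG.2825 has no description there and MSTRG.17062 is described as a hypothetical or uncharacterized protein. Both were named by tracing the fold changes that the study lists for Bf and MASP, so their contrasts with fresh tissue chose them and are given below without a test. C3 MSTRG.13902 and Bf-2 also stand among the genes that the study listed as changed in these libraries, so the direction of their contrasts is not independent evidence.

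The study asked which genes change while the body wall softens at 37 °C. RNA was sequenced from fresh body wall (CON) and from body wall held at 37 °C for 1 h (T_1h) or 3 h (T_3h), with 3 libraries a group. The animals, of no stated genotype or age, came from a market, and viscera and heads were removed before the walls were cut into pieces, so every heated library is excised tissue and none of the 9 libraries is of tissue kept as long without heat. Levels are FPKM, fragments scaled by the length of the transcript model and by each library's mapped reads. No read counts stand behind them here, so the number of reads behind a single value is unknown.

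C3 is the central protein of complement: when it is cleaved, its larger fragment binds to a surface through a thioester bond and its smaller fragment acts as a signal. Factor B binds to the attached C3 fragment and supplies the protease that cleaves more C3, which is the amplifying loop of the alternative pathway. MASP proteases start the lectin pathway in vertebrates, after mannan-binding lectin or a ficolin has bound to sugars on a microbe. Echinoderms hold C3 and factor B genes, and in sea urchins coelomocytes, the cells of the body fluid, express them.

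The 5 genes were all expressed in every library, and each was higher in each heated library than in the fresh library of the same replicate number. This held in all 6 pairs of libraries (3 at 1 h and 3 at 3 h) for each of the 5 genes, and 2.82% of the 20334 genes that averaged 1 FPKM or more showed the same. The genes were chosen partly for their rise, so that share is given as background and nothing is read from it. The libraries of number 1 were low and those of number 3 high for most of these genes at every stage, so the groups overlapped in many comparisons although each pair moved the same way.

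**Figure D1:**
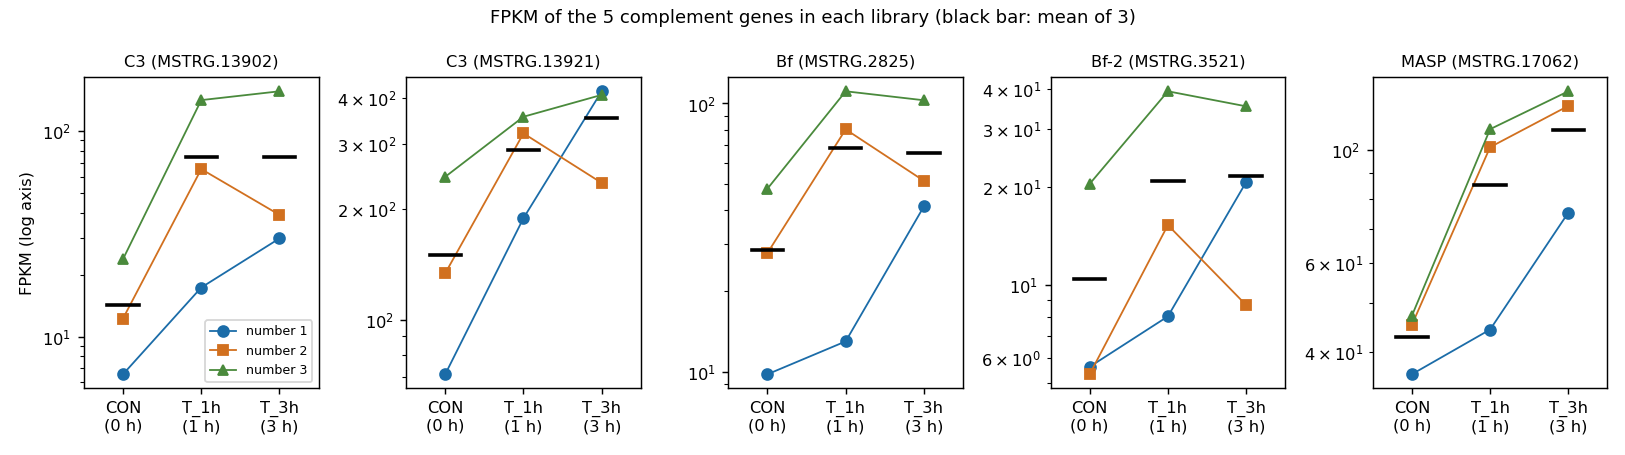
FPKM on a log axis of the 5 genes in the 9 libraries, by stage (CON, 0 h; T_1h, 1 h; T_3h, 3 h at 37 °C). Colours and symbols mark the replicate number, lines join libraries of 1 number and black bars are means of 3 libraries. For C3 MSTRG.13902 the means were 14.2, 74.7 and 75.1 FPKM, and the libraries of number 3 lie above those of number 1 at each stage.

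C3 MSTRG.13902, a gene with 1 assembled transcript, had the widest range of the 5. It stood at 6.55, 12.2 and 23.8 FPKM in CON, at 17.3, 65.3 and 141.4 FPKM in T_1h and at 30.0, 39.1 and 156.1 FPKM in T_3h. All 3 T_3h libraries lay above all 3 CON libraries, while T_1h_1 fell inside the CON range. The highest library was 23.8 times the lowest.

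The mean level of C3 MSTRG.13902 was 14.2 ± 8.80 FPKM in CON, 74.7 ± 62.6 FPKM in T_1h and 75.1 ± 70.3 FPKM in T_3h (SD, n = 3 each). Within replicate numbers 1, 2 and 3, T_1h was 2.64, 5.34 and 5.94 times CON, and T_3h was 4.58, 3.19 and 6.56 times CON. The study left out T_1h_1 because it correlated poorly with the other libraries, and without it the T_1h mean was 103.3 ± 53.8 FPKM (n = 2).

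In limma fitted to log2(FPKM + 1) of the 8 libraries without T_1h_1, C3 MSTRG.13902 rose by 2.84 on the log2 scale in T_1h over CON (SE 0.79) and by 2.10 in T_3h over CON (SE 0.71), both past the thresholds. A gene passed where its unadjusted p was at most 0.05 and its log2 change at least 1 in size. At 1 h, 0.398% of the 50973 tested genes passed in the upward direction, and at 3 h 0.473% did. The adjusted p by limma was 1 for this gene at 1 h and 0.737 at 3 h. It was under 0.05 for 0 genes in either contrast, against 896 and 3157 genes with an unadjusted p under that value. The call at 1 h was lost without T_1h_3 (log2 change 2.29), and that at 3 h without CON_1 (1.68) or T_3h_3 (1.38).

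C3 MSTRG.13921, with 13 assembled transcripts, was the most abundant of the 5 genes and made up 47.0 to 71.4% of their summed FPKM in the 9 libraries. It stood at 71.0, 133.5 and 244.3 FPKM in CON, at 188.5, 320.5 and 355.7 FPKM in T_1h and at 417.1, 235.1 and 407.8 FPKM in T_3h. Its lowest heated library, T_1h_1, lay below CON_3, and so did T_3h_2. The order of the libraries of T_3h thus differed from that of CON and T_1h, with number 1 at the top and number 2 at the bottom.

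The mean level of C3 MSTRG.13921 was 149.6 ± 87.7 FPKM in CON, 288.2 ± 88.1 FPKM in T_1h and 353.3 ± 102.5 FPKM in T_3h (SD, n = 3 each). Same-numbered ratios were 2.66, 2.40 and 1.46 at 1 h and 5.88, 1.76 and 1.67 at 3 h for numbers 1, 2 and 3. By limma it rose by 1.34 on the log2 scale in T_1h over CON (SE 0.55, adjusted p = 1) and by 1.36 in T_3h over CON (SE 0.49, adjusted p = 0.755). Leaving out any of CON_1, CON_2, T_1h_2 or T_1h_3 ended the call at 1 h, with log2 changes of 0.90, 1.35, 1.42 and 1.27 in that order. Leaving out any of CON_1, CON_2, T_3h_1 or T_3h_3 ended that at 3 h, with log2 changes of 0.92, 1.37, 1.22 and 1.24.

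The 2 C3 genes carry the same protein match in the table, so reads from near-identical parts of them may have been divided between them, and their separate levels are uncertain to that extent. Their ratio within a library does not depend on how the library was scaled. MSTRG.13902 stood at 9.23, 9.16 and 9.75% of the FPKM of MSTRG.13921 in the CON libraries of numbers 1, 2 and 3. In T_1h the ratios were 9.18, 20.4 and 39.8%, and in T_3h they were 7.20, 16.6 and 38.3%.

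The ratio of the C3 genes was therefore nearly the same in the 3 fresh libraries, stayed near that value in the heated libraries of number 1, and was higher in all 4 heated libraries of numbers 2 and 3. It differed little between 1 h and 3 h of the same number. Library T_1h_1, which stands apart for the study, had the ratio of the fresh libraries, and T_3h_1, which was not set aside, had a lower one. No test was run on this ratio, which was seen in the data before it was described.

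**Figure D2:**
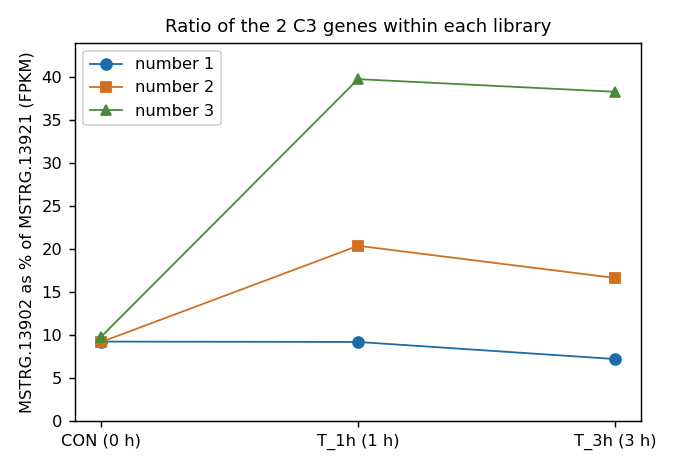
FPKM of C3 MSTRG.13902 as a percentage of that of C3 MSTRG.13921 in each library, by stage, with lines joining libraries of 1 replicate number. The 3 CON libraries lie between 9.16 and 9.75%, number 1 stays at 7.20 to 9.23% throughout, and number 3 reaches 39.8% in T_1h.

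Bf (MSTRG.2825), with 1 assembled transcript, stood at 9.81, 27.7 and 48.2 FPKM in CON, at 13.0, 80.1 and 111.0 FPKM in T_1h and at 41.4, 51.5 and 102.8 FPKM in T_3h. T_1h_1 was the lowest heated library and lay below CON_2 and CON_3, and T_3h_1 lay below CON_3. The other 4 heated libraries exceeded every fresh one. The means were 28.6 ± 19.2 FPKM in CON, 68.0 ± 50.1 FPKM in T_1h and 65.2 ± 32.9 FPKM in T_3h (SD, n = 3 each), and that of T_1h without T_1h_1 was 95.6 ± 21.9 FPKM (n = 2).

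For Bf the same-numbered ratios were 1.33, 2.89 and 2.31 at 1 h and 4.22, 1.86 and 2.13 at 3 h for numbers 1, 2 and 3. The log2 change fitted to 8 libraries was 1.94 (SE 0.67) in T_1h over CON and 1.31 (SE 0.60) in T_3h over CON. The assembled gene MSTRG.2825 shares its annotated gene model with another entry of the table, MSTRG.2823, which is described as both complement factor B and factor B-2, so reads of one may have been given to the other. MSTRG.2823 stood at 3.19, 2.11 and 25.7 FPKM in CON, at 15.4, 5.07 and 30.5 FPKM in T_1h and at 40.4, 3.44 and 33.1 FPKM in T_3h. Number 2 was the lowest of MSTRG.2823 at every stage, which was not so for Bf. MSTRG.2823 was singled out for the shared model after its values were seen.

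Bf-2 (MSTRG.3521), with 13 assembled transcripts over 4 gene models, was the least abundant of the 5 genes. It stood at 5.62, 5.33 and 20.4 FPKM in CON, at 8.02, 15.3 and 39.3 FPKM in T_1h and at 20.7, 8.69 and 35.3 FPKM in T_3h. CON_3 lay above 3 of the 6 heated libraries (T_1h_1, T_1h_2 and T_3h_2), so the groups overlapped at both times.

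The mean level of Bf-2 was 10.5 ± 8.63 FPKM in CON, 20.9 ± 16.3 FPKM in T_1h and 21.6 ± 13.3 FPKM in T_3h (SD, n = 3 each). Its same-numbered ratios were 1.43, 2.86 and 1.92 at 1 h and 3.68, 1.63 and 1.73 at 3 h. Its fitted log2 change was 1.41 (SE 0.76) at 1 h and 1.03 (SE 0.68) at 3 h, and neither passed by limma (adjusted p = 1 and adjusted p = 0.879). When the replicate number was added as a block, Bf-2 passed at both times, with log2 changes of 1.31 at 1 h (limma adjusted p = 0.915) and 1.03 at 3 h (adjusted p = 0.280). With the block and T_1h_1 put back it was 0.91 at 1 h and no longer passed. Without CON_3, its highest fresh library, it also passed without the block, at 1.98 and 1.60.

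The ratio of Bf-2 to Bf within a library went with the replicate number rather than the stage. At CON, T_1h and T_3h it was 57.3, 61.7 and 50.0% in number 1, against 19.2, 19.1 and 16.9% in number 2 and 42.4, 35.4 and 34.3% in number 3. The 3 ranges do not overlap. In each number the T_3h library had the lowest ratio.

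MASP (MSTRG.17062), with 7 assembled transcripts over 2 gene models, differed from the others in its even fresh level. It stood at 36.2, 45.2 and 47.2 FPKM in CON, at 44.3, 101.4 and 110.0 FPKM in T_1h and at 75.3, 122.2 and 130.6 FPKM in T_3h. Every T_3h library was above every CON library, and T_1h_1 was the single heated library inside the CON range.

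The mean level of MASP was 42.9 ± 5.87 FPKM in CON, 85.2 ± 35.7 FPKM in T_1h and 109.4 ± 29.8 FPKM in T_3h (SD, n = 3 each), and 105.7 ± 6.10 FPKM in T_1h without T_1h_1 (n = 2). Its same-numbered ratios were 1.23, 2.24 and 2.33 at 1 h and 2.08, 2.70 and 2.77 at 3 h, the narrowest spread of the 5 genes at 3 h. Its log2 change over CON was 1.29 (SE 0.39) at 1 h and 1.30 (SE 0.35) at 3 h. It was the only 1 of the 5 genes whose level was higher at 3 h than at 1 h in all 3 numbers, with T_3h at 1.70, 1.21 and 1.19 times T_1h, as in 3.56% of tested genes.

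**Figure D3:**
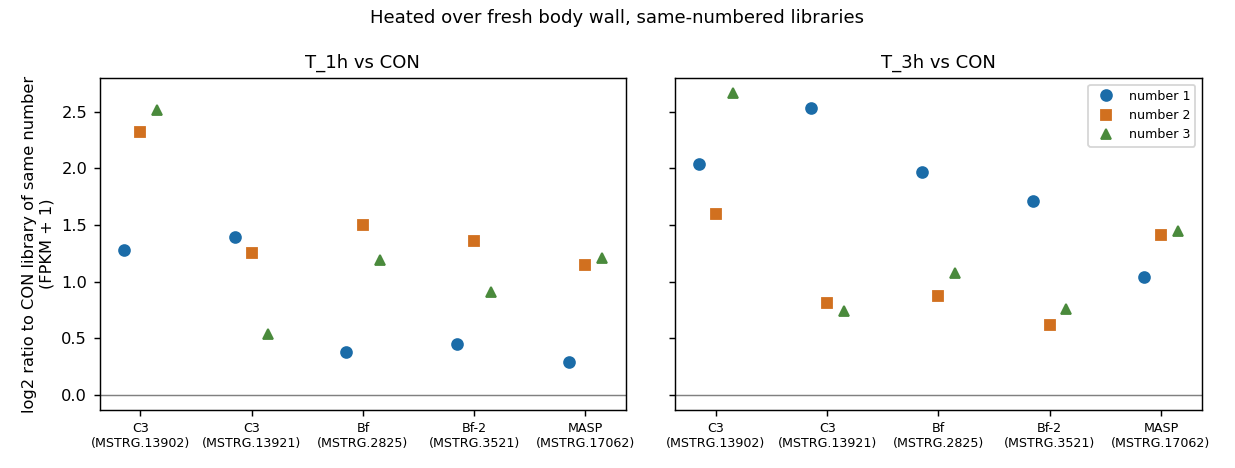
Log2 ratio of each heated library over the fresh library of the same replicate number, on FPKM + 1, for T_1h (left) and T_3h (right). All 30 points lie above 0, the grey line. At 1 h number 1 has the smallest ratio for 4 of the 5 genes, and at 3 h it has the highest for C3 MSTRG.13921, Bf and Bf-2.

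Group overlap was set beside the share of all genes. The genes were chosen partly for their rise over CON, so these shares are background and nothing is read from them. The T_3h and CON groups did not overlap, with T_3h higher, for C3 MSTRG.13902 and MASP, and for 1.68% of the 50973 tested genes. Without T_1h_1, T_1h and CON did not overlap for both C3 genes, Bf and MASP, and for 4.37% of tested genes. The median log2 change of all tested genes was -0.06 in T_1h over CON and -0.17 in T_3h over CON. Median-ratio scaling, which divides each library by its median ratio to the genes' own averages, brought the median at 3 h to -0.02. It gave log2 changes at 3 h of 2.61 for C3 MSTRG.13902, 1.89 for C3 MSTRG.13921, 1.82 for Bf, 1.51 for Bf-2 and 1.82 for MASP.

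Between 1 h and 3 h no gene of the 5 passed, and 0.728% of tested genes did in either direction. The log2 difference of T_3h over T_1h, in the fit without T_1h_1, was -0.74 for C3 MSTRG.13902 (SE 0.79), 0.02 for C3 MSTRG.13921 (SE 0.55), -0.64 for Bf (SE 0.67), -0.38 for Bf-2 (SE 0.76) and 0.01 for MASP (SE 0.39), with a limma adjusted p = 1 for each. In the fit of all 9 libraries all 5 differences were positive, from 0.06 to 0.42. Those of C3 MSTRG.13902, Bf and Bf-2 had the opposite sign there from the fit of 8 libraries, and that of Bf-2 was also positive without T_1h_3 (0.27) or without T_3h_2 (0.13). In number 1 all 5 genes were higher at 3 h than at 1 h, by 1.70 to 3.18 times. In number 2 all but MASP were lower, at 0.569 to 0.733 times the T_1h level, and in number 3 T_3h stood at 0.899 to 1.19 times T_1h.

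The 5 genes moved together over the 9 libraries. Pearson's r of log2(FPKM + 1) was between 0.646 and 0.922 for the 10 pairs of genes, with a median of 0.844, and Spearman's rho was between 0.70 and 0.95. The exact permutation p (two-sided) of r was 0.000642 to 0.0657, and 0.00342 to 0.0657 after Benjamini-Hochberg adjustment over the 10 pairs. That of rho was 0.000353 to 0.0433, and 0.00353 to 0.0433 adjusted. These p-values take the 9 libraries as independent, which same-numbered libraries were not, and the shared rise in heated tissue helped to choose the genes. The p-values are therefore given as a description, and no significance is read from them.

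C3 MSTRG.13902 and Bf were the closest pair (r = 0.922, rho = 0.95), followed by C3 MSTRG.13902 and MASP (r = 0.899, rho = 0.93). Bf-2 and MASP were the least alike (r = 0.646, rho = 0.70, exact permutation p of r = 0.0657). The 2 C3 genes had r = 0.846. Without the 2 libraries farthest from the median of the first gene, r was still positive in all 10 pairs, between 0.528 and 0.890, and over the 6 heated libraries alone it was between 0.521 and 0.928.

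Deviations from the group means also went together when pooled over the 3 groups. After each group's mean was subtracted, r was between 0.448 and 0.934 with a median of 0.812. The order of the libraries was not the same for all genes within T_3h, where number 1 was lowest for C3 MSTRG.13902, Bf and MASP and number 2 was lowest for C3 MSTRG.13921 and Bf-2. After the mean of each replicate number was subtracted as well, r was between -0.21 and 0.991 with a median of 0.692. Bf and Bf-2 had the highest of these values, 0.991, and C3 MSTRG.13921 and MASP the lowest, -0.21. Few independent values remain after both subtractions, so each such r is imprecise, and none was tested.

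The share of variation that went with stage was above the median of all genes for each of the 5. Of the sum of squares of log2(FPKM + 1) over the 9 libraries, stage held 64.2% for MASP, 55.4% for C3 MSTRG.13921, 48.5% for C3 MSTRG.13902, 24.8% for Bf and 23.4% for Bf-2, against a median of 16.4% over the 20334 genes that averaged 1 FPKM or more. The replicate number held 29.3% for MASP, 22.0% for C3 MSTRG.13921, 46.7% for C3 MSTRG.13902, 63.3% for Bf and 63.1% for Bf-2, against a median of 52.4%. The 2 factor B genes thus varied more between numbers than between stages, and MASP and C3 MSTRG.13921 the other way round. The share of stage is partly what chose the genes and carries no test.

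**Figure D4:**
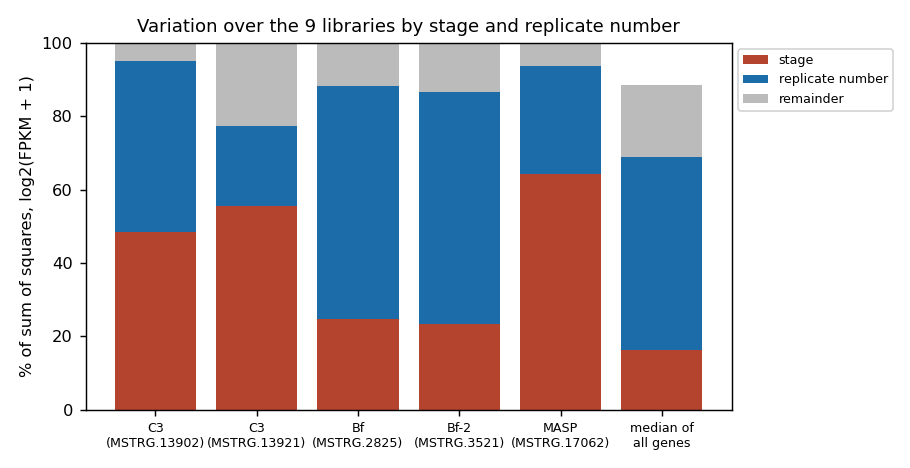
Share of the sum of squares of log2(FPKM + 1) over the 9 libraries that went with stage (red), with replicate number (blue) and with neither (grey), for the 5 genes and as medians of 20334 genes, which need not sum to 100. Stage holds 64.2% for MASP and 23.4% for Bf-2.

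The mean standardised profile of the 5 over 9 libraries was compared with described genes outside the 5 that averaged 1 FPKM or more. Most like it were a myosin heavy chain (MSTRG.24083, r = 0.960), a gene described as striated and smooth muscle kinases (MSTRG.25860, r = 0.958), a matrix metalloproteinase 16 precursor (MSTRG.5484, r = 0.958), an inner dynein arm light chain (MSTRG.5215, r = 0.953) and a glutamate carboxypeptidase 2-like gene (MSTRG.40390, r = 0.953). With the 5 and genes of no usable description included, their ranks were 9, 11, 12, 15 and 16 of 20334. MSTRG.24083, a motor protein of contraction, stood at 1.51, 4.54 and 4.55 FPKM in CON, 2.75, 13.9 and 16.8 FPKM in T_1h and 8.42, 11.2 and 23.1 FPKM in T_3h. MSTRG.5484, a protease of the matrix, stood at 41.9, 37.9 and 60.6 FPKM in CON, 49.2, 108.5 and 150.1 FPKM in T_1h and 75.1, 79.5 and 155.9 FPKM in T_3h. Both shared with the complement genes a high number 3 and a low T_1h_1.

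Set against the mean of the other 4, C3 MSTRG.13902 ranked 8th of 20330 genes, Bf 34th, C3 MSTRG.13921 94th, MASP 149th and Bf-2 179th. By likeness to Bf-2 alone, MASP ranked 2221st of 20333 genes. All these values rest on 9 points that share stage and number, and are given as a description.

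Other genes of the same families were counted beside all tested genes. The table holds 7 further genes described as C3-2 and 5 further genes described as factor B or B-2, all tested. Of these 12, 0 passed at 1 h and 0 at 3 h in the fit of 8 libraries. Of all tested genes 0.398% rose and 0.473% fell at 1 h, and 0.473% rose and 3.67% fell at 3 h. With shares that low, 0 of 12 does not set these relatives apart. A positive log2 change was found for 11 of the 12 at each time. Their median log2 change was 0.97 at 1 h and 0.60 at 3 h, against -0.06 and -0.17 over all tested genes. With the replicate number as a block, 4 of the 12 (2 C3-2 and 2 factor B genes) rose at 1 h and 2 factor B genes rose at 3 h, where 0.463% and 0.722% of tested genes did.

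The most abundant of these relatives went with replicate number far more than with stage. The factor B gene MSTRG.6395 stood at 2.30, 174.1 and 31.3 FPKM in CON, at 3.80, 304.1 and 47.2 FPKM in T_1h and at 10.6, 96.6 and 52.9 FPKM in T_3h, so that number 2 was highest at every stage and number 1 lowest. Replicate number held 91.6% of its variation and stage 1.83%. The C3-2 gene MSTRG.42747 stood at 15.7, 17.6 and 100.1 FPKM in CON, at 27.8, 45.0 and 158.4 FPKM in T_1h and at 36.0, 21.2 and 153.0 FPKM in T_3h, with number 3 highest throughout and 85.3% of its variation by number. MSTRG.42747 was higher in all 6 same-numbered pairs, and MSTRG.6395 in 5 of 6.

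The C3-2 gene MSTRG.10060 stood at 16.7, 4.23 and 50.5 FPKM in CON, at 27.4, 13.7 and 47.4 FPKM in T_1h and at 42.1, 6.89 and 74.4 FPKM in T_3h, lowest in number 2 at each stage. The factor B gene MSTRG.27176 stood at 4.48, 5.53 and 19.8 FPKM in CON, at 7.13, 13.9 and 53.5 FPKM in T_1h and at 15.4, 6.85 and 50.0 FPKM in T_3h and was highest in number 3 at each stage. A low factor B-2 gene, MSTRG.2824, was listed at 0 in all 3 libraries of number 2 and at 1.40 to 3.78 FPKM in the other 6. It was singled out after its values were seen.

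**Figure D5:**
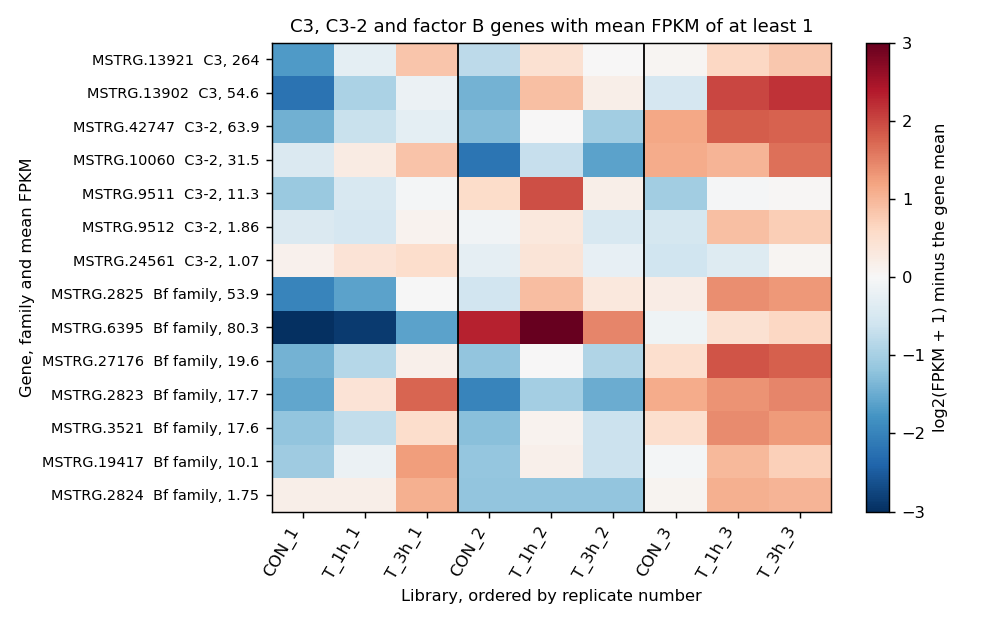
Log2(FPKM + 1) minus the gene's mean in each library, for the C3, C3-2 and factor B genes that averaged 1 FPKM or more, with the mean beside each name. Libraries are ordered by replicate number and, within it, by stage (CON, T_1h, T_3h), and black lines part the numbers. MSTRG.6395 is high in all 3 libraries of number 2, while both C3 genes and Bf are lowest in CON_1.

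Thioester proteins that resemble C3 in structure but act as protease traps or surface antigens were counted as a second list. Of 12 genes described as alpha-2-macroglobulin, CD109, pregnancy zone protein or the like, 4 rose at 1 h and 3 at 3 h, where 0.398% and 0.473% of tested genes rose. At either time 0 fell, where 0.473% of tested genes fell at 1 h and 3.67% at 3 h. A positive log2 change was found for 11 of the 12 at 1 h and 8 of the 12 at 3 h. Their median log2 change was 0.62 at 1 h and 0.38 at 3 h, against -0.06 and -0.17 over all tested genes. The alpha-2-macroglobulin gene MSTRG.552 stood at 0.854, 4.84 and 5.76 FPKM in CON, at 6.23, 22.1 and 42.1 FPKM in T_1h and at 13.6, 18.7 and 28.5 FPKM in T_3h. All its heated libraries exceeded all fresh ones, with log2 changes of 2.92 at 1 h and 2.29 at 3 h (limma adjusted p = 1 and adjusted p = 0.649). Its r with the mean profile of the 5 genes was 0.953.

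The pregnancy zone protein gene MSTRG.23773 stood at 44.2, 108.4 and 163.3 FPKM in CON, at 101.4, 233.6 and 302.0 FPKM in T_1h and at 203.2, 284.8 and 320.7 FPKM in T_3h. It rose by 1.51 on the log2 scale at each time (limma adjusted p = 1 and adjusted p = 0.732). MSTRG.45318, another alpha-2-macroglobulin, stood at 1.25, 7.59 and 6.58 FPKM in CON, at 5.15, 24.8 and 31.5 FPKM in T_1h and at 10.7, 23.4 and 22.6 FPKM in T_3h, and rose by 2.46 and 1.84. The CD109 antigen-like gene MSTRG.3337 stood at 14.8, 16.3 and 9.70 FPKM in CON, at 7.02, 11.5 and 17.4 FPKM in T_1h and at 4.52, 5.66 and 10.4 FPKM in T_3h. It did not pass, with log2 changes of 0.09 at 1 h and -0.93 at 3 h, and in T_3h it stood at 0.305, 0.347 and 1.08 times CON in numbers 1, 2 and 3.

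Genes for recognition and initiation, mainly ficolins, which bind sugars and recruit MASP, showed no common direction. Of 50 such genes 47 were tested, 0 rose and 1 fell at 1 h, and 1 rose and 3 fell at 3 h. Their median log2 changes were 0.03 and -0.10, against -0.06 and -0.17 over all tested genes. Of all tested genes 0.398% rose and 0.473% fell at 1 h, and 0.473% rose and 3.67% fell at 3 h. The most abundant, the ficolin-1-like gene MSTRG.31986, stood at 57.8, 41.0 and 21.6 FPKM in CON, at 83.4, 81.9 and 52.1 FPKM in T_1h and at 135.1, 170.2 and 51.6 FPKM in T_3h, and rose by 1.49 at 3 h (limma adjusted p = 0.766). Its number 3 was the lowest at each stage, the reverse of C3 MSTRG.13902. The ficolin-2-like gene MSTRG.40865 stood at 18.6, 30.9 and 11.1 FPKM in CON, at 20.3, 13.0 and 20.2 FPKM in T_1h and at 1.57, 1.65 and 12.6 FPKM in T_3h, and fell by 2.11 on the log2 scale at 3 h (limma adjusted p = 0.731).

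The log2 changes at 1 h and 3 h were -0.67 and -1.21 for MSTRG.7710, described in part as ficolin-2-like, and -0.19 and 0.75 for the ficolin-2-like gene MSTRG.821, and neither gene passed. Of 5 regulators, proteins that restrain complement on the body's own cells, 0 passed at either time. Of all tested genes 0.398% rose and 0.473% fell at 1 h, and 0.473% rose and 3.67% fell at 3 h. With the replicate block 1 regulator fell at 3 h, as did 2805 of the 50973 tested genes. The most abundant, MSTRG.23742, described in part as like complement receptor type 1, was at 11.9, 7.75 and 34.8 FPKM in T_3h, against 18.5, 32.5 and 73.8 FPKM in CON, a log2 change of -1.20 (limma adjusted p = 0.841). It was lower in all 3 same-numbered pairs at 3 h, as were 26.4% of tested genes. The 1 gene found for complement receptors and the terminal pathway, MSTRG.37845, did not pass.

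The libraries were bulk tissue, so more RNA per cell cannot be told apart from more cells of a type. The gene lists used here were drawn by words in the descriptions, and the gut list also holds neurotrypsin genes, so a list need not mark 1 cell type. The summed FPKM of the 38 genes in the coelomocyte or phagocyte list (33 tested) was 136.5 to 340.8 in CON, 152.7 to 187.0 in T_1h and 82.8 to 140.0 in T_3h. Of these genes 1 rose and 4 fell at 3 h, where 0.473% of tested genes rose and 3.67% fell. The sum for 25 muscle genes was 122.5 to 238.0 in CON, 155.3 to 393.0 in T_1h and 229.5 to 389.3 in T_3h, with 3 genes higher at 1 h (0.398% of tested genes were), and 4 higher and 1 lower at 3 h (0.473% and 3.67%). As for C3 MSTRG.13902, Bf and MASP, that sum was lowest in number 1 and highest in number 3 at each stage. The coelomocyte or phagocyte sum was instead highest in number 2 and lowest in number 3 at each stage. The part of either list in the result was not tested. The sum for 47 connective tissue genes was 13606 to 24448 in CON, 15144 to 25252 in T_1h and 14567 to 32653 in T_3h, and these collagen and fibrillin genes form the matrix of the labelled body wall. Those of gut and of nerve genes were at most 75.8 and 78.3 in heated tissue, against at most 123.4 and 96.2 in CON. The summed FPKM of all genes was 336123 to 388082, of which the 5 complement genes held 0.0384 to 0.239%, and 12877 to 24915 genes reached 1 FPKM, fewest in T_3h_2.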

How the data were processed

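RNA of the body wall was sequenced in 9 libraries, each mapped to its group and replicate number by its label. The authors aligned reads to the *A. japonicus* genome with HISAT, assembled them with StringTie and deposited gene FPKM values estimated with StringTie and Ballgown. The submitters' processing notes name HISAT2 2.0, StringTie 1.3.0 and Bowtie 0.12.2, and a mouse build whose role is not given. FPKM is scaled by transcript length and mapped reads, so the reads behind a value are unknown (read totals of whole libraries, which the study gives, were not used here), and precision rests on 3 libraries a group. How reads matching several copies were assigned is not given in the sources used here. The study lists the share of multimapped reads in each library, highest in T_3h_1, and its part in the levels was not tested.

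T_1h_1 was left out as in the study. Genes detected (FPKM over 0) in 2 or more of the other 8 libraries entered 1 limma model (limma 3.58.1, R 4.3.3) of log2(FPKM + 1) with a mean for each group and a trended empirical Bayes step. Tests were two-sided with Benjamini-Hochberg adjustment over all tested genes. An exact permutation test of 3 against 3 libraries cannot go below p = 0.1, so p-values rest on limma's model. The steps were run on simulated data whose libraries were independent and had no effect of replicate number. That run cannot check the independence that the model assumes. Python 3.11.15 with numpy 2.4.6, pandas 2.3.3, scipy 1.17.1 and matplotlib 3.10.9 did the rest.

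The labels number the libraries of each group. Across genes, deviations from group means had r = 0.595 to 0.722 in the 9 same-numbered pairs of libraries. In the 18 other pairs r was -0.44 to -0.12. Numbers were therefore paired in the same-numbered ratios and in the fits with a block. The main limma fit had no term for the number, so its SE and p take same-numbered libraries as independent. For C3 MSTRG.13902 at 3 h the SE was 0.71 in that fit and 0.305 with the block on 8 libraries. Whether a number is 1 animal is not stated. No library files were identical.

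The genes, the lists (searches of the descriptions) and the rules for named genes were chosen with earlier results of these data known. Values were given for list genes that passed in a comparison or had a mean FPKM of at least 10, at most 4 a list by mean FPKM, and for the 5 described genes of highest r with the mean profile. In all, 19 other fits were run, 2 of them chosen after seeing the data: pseudocount, filters, all 9 libraries, scaling, replicate block, an analogue of Ballgown's test, and each library left out.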

Additional observations from a re-analysis of the deposited data

How the results depend on the processing

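The contrasts of both C3 genes and Bf-2 with CON were recomputed in 19 other fits, and all 114 log2 changes were positive, with 89 on the same side of the thresholds, 12 no longer past them and 13 newly past them. For Bf and MASP, chosen by these contrasts, only values are given. With the replicate number as a block (8 libraries), Bf-2 passed at 1 h (1.31) and 3 h (1.03), Bf at 3 h was 1.31, and the block changed no call of the C3 genes. With the block and all 9 libraries the changes at 3 h were again 1.31 for Bf and 1.03 for Bf-2, which passed, and at 1 h 0.88 for MASP and 0.91 for Bf-2, which did not pass. A minimum mean FPKM of 1 added to that fit left these 4 values as they were. There the adjusted p by limma at 3 h was 0.0213 for C3 MSTRG.13902, 0.0570 for C3 MSTRG.13921 and 0.119 for Bf-2. In the same fit 1291 of the 20334 tested genes had an adjusted p under 0.05 at 3 h, so a low value does not set a gene apart. With the block, all 9 libraries and median-ratio scaling, Bf at 3 h was 1.82 and Bf-2, which passed at both times, 1.07 at 1 h and 1.51 at 3 h. These last 2 fits were chosen after seeing the data. Without the block, all 9 libraries gave 1.06 for C3 MSTRG.13921, which did not pass, 1.02 for Bf and 0.88 for MASP at 1 h. Median-ratio scaling gave 1.82 for Bf at 3 h and 1.58 and 1.51 for Bf-2 at 1 h and 3 h, and upper-quartile scaling 1.89, 1.61 and 1.57. The analogue of Ballgown's test gave 2.23 for Bf and 2.02 for Bf-2 at 3 h. Its value is a group difference in log2(FPKM + 1) adjusted for a measure of each library's size. Bf-2 passed in each of these at the times given.

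T_3h over T_1h changed sign in several fits. With all 9 libraries, with or without the block or the minimum mean, it was 0.059 for C3 MSTRG.13902, 0.29 for Bf and 0.12 for Bf-2. With the block and median-ratio scaling it was 0.39, 0.62 and 0.44, and with the analogue of Ballgown's test, on 8 libraries, 0.31 for Bf-2. No such difference passed.

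With 1 library left out at a time, C3 MSTRG.13902 ranged over 2.29 to 3.40 at 1 h, 1.38 to 2.55 at 3 h and -1.46 to -0.19 for T_3h over T_1h. C3 MSTRG.13921 ranged over 0.90 to 1.78, 0.92 to 1.80 and -0.12 to 0.29, Bf over 1.34 to 2.43, 0.71 to 1.80 and -1.01 to -0.37, Bf-2 over 0.75 to 2.06, 0.59 to 1.60 and -1.03 to 0.27, and MASP over 1.18 to 1.36, 1.15 to 1.55 and -0.14 to 0.26.

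Over all genes 444, 2111 and 371 passed (T_1h over CON, T_3h over CON, T_3h over T_1h). A pseudocount of 0.1 gave 772, 3362 and 861, and the analogue of Ballgown's test 712, 785 and 177. All 9 libraries gave 273 at 1 h, upper-quartile scaling 1403 at 3 h, and the block 791 at 1 h and 3173 at 3 h. The block with all 9 libraries gave 3213 at 3 h and 687 for T_3h over T_1h, and 739 for the last with a minimum mean FPKM of 1. Leaving out 1 library gave 370 to 747, 1232 to 3667 (highest without T_3h_3) and 158 to 1564.

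Of the 80 other complement genes in the lists, 5, 7 and 3 passed in either direction in these comparisons. Over all 50973 tested genes 444, 2111 and 371 did. Counts of all genes in the same fit stand in brackets below, of 51453 tested with all 9 libraries and 20334 with the minimum mean. They are given as a description, and no list was tested. All 9 libraries gave 2 at 1 h (273) and median-ratio scaling 8 at 1 h (409). Upper-quartile scaling gave 8 at 1 h (408) and 11 at 3 h (1403). The analogue of Ballgown's test gave 4 at 3 h (785) and 1 for T_3h over T_1h (177). The block gave 9 at 1 h (791), and with all 9 libraries 11 at 3 h (3213). Adding a minimum mean FPKM of 1 gave 13 at 3 h (3160) and 5 for T_3h over T_1h (739). Adding median-ratio scaling gave 10 at 1 h (388) and 16 at 3 h (2010). Leaving out 1 library gave 2 to 6 (370 to 747), 5 to 13 (1232 to 3667) and 1 to 8 (158 to 1564). The median r of the 10 pairs of genes was 0.692 after group and number means were subtracted and 0.846 without T_1h_1.

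The limits are these. The cause of none of these shifts was tested. A higher minimum also lowers the number of tests, and its part in the adjusted p was not tested. The reads behind an FPKM value are unknown, so a change cannot be weighed by them, and 2 libraries stand for T_1h. Whether same-numbered pieces share an animal is not stated. Whether the C3 genes, or Bf and MSTRG.2823, share reads was not tested, and the names of Bf and MASP rest on traced fold changes. No sequence or position of these genes was used here.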
